A study of Rattus norvegicus with 4 samples.

Results

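The 6 genes Nr5a1, Nr5a2, Nr0b1, Gata4, Gata6 and Foxl2 encode transcription factors of granulosa cells, the somatic cells that surround the oocyte in the ovarian follicle and make estradiol and progesterone. They were taken by exact gene symbol in the platform annotation of a rat expression array, which gave 11 probe sets for these 6 of 14217 named genes. The cells were primary granulosa cells of estradiol-treated, immature female Sprague-Dawley rats aged 23 to 25 days. All had been exposed to an adenovirus for 4 h and then to follicle-stimulating hormone (FSH, 100 ng/ml) or vehicle for 24 h. The groups were FOXOA3 FSH (FOXO1, a forkhead transcription factor, in a form that is always active, with FSH), FOXOA3-mDBD FSH (that form with a mutation of its DNA-binding domain, with FSH), GFP FSH (green fluorescent protein as control vector, with FSH) and GFP vehicle (the control vector without hormone). Each group had 1 array, so no difference had a replicate check and no p-value was computed. The number of rats or wells behind an array is not given in the sources used here, and no uninfected cells were among the arrays.

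Nr5a1 (steroidogenic factor 1) and Nr5a2 (liver receptor homolog 1) are nuclear receptors that bind DNA as monomers, share a binding sequence and switch on genes of steroid synthesis. Nr0b1 (DAX-1) lacks the usual DNA-binding domain and represses NR5A receptors by binding to them. Gata4 and Gata6 are zinc-finger factors that act together with NR5A proteins on the promoters of steroidogenic genes, and Foxl2 is a forkhead factor that maintains the female identity of granulosa cells in mice. FSH acts through cyclic AMP, and it also leads to the phosphorylation of FOXO1 and its exit from the nucleus. FOXO1 is itself a factor of undifferentiated granulosa cells.

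Sequences from around the start are shown for the 3 nuclear receptor genes, whose signals followed 3 different patterns over the arrays. The sequences are RefSeq's, build GRCr8, and end at the base before the start site that RefSeq's table uses for the gene. Of the 6 genes, 4 had an entry; Gata6 was the fourth, and Gata4 and Foxl2 had none. Capitals mark matches to an E-box (CACGTG), to a CCAAT box (spelled CCAAT), or to the core that many nuclear receptors bind (AGGTCA), on either strand. The Nr5a1 window is chr3:42896047-42896296 on the minus strand, the Nr5a2 window chr13:50984939-50985188 on the minus strand and the Nr0b1 window chrX:54707408-54707657 on the plus strand.
Nr5a1: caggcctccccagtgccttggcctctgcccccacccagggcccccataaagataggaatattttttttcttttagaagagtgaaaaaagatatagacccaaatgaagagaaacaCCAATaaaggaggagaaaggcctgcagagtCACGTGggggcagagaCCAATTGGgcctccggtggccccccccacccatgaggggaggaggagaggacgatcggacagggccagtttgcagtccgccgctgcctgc
Nr5a2: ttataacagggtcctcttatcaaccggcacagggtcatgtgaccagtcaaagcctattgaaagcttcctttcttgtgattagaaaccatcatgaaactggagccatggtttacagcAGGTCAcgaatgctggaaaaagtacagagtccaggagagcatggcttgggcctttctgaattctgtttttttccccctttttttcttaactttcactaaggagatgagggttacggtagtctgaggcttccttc
Nr0b1: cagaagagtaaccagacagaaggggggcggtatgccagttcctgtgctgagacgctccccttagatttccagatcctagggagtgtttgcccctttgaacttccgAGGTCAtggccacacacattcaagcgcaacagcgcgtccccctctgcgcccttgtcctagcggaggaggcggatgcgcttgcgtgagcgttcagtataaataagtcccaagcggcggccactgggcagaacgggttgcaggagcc
The Nr5a1 window held an E-box at -106 to -101 and CCAAT letters at -136 to -132 and -90 to -86, and on the other strand a match at -87 to -83 that overlaps the last one. USF proteins are known to act on rodent Nr5a1 through an E-box close to its start, and NF-Y is the usual factor of CCAAT boxes. The E-box was present in 5.59% and the CCAAT letters in 34.0% of all 33469 upstream windows of 250 bases. The Nr5a2 window held AGGTCA at -134 to -129 and the Nr0b1 window at -145 to -140, and 14.1% of all windows held it. AGGTCA is the core of the longer NR5A sequence AAGGTCA, which stood in none of the 4 windows and in 3.99% of all. None of the 4 windows held the FOXO core TGTTTAC (3.21% of all windows), the core of the cyclic AMP response element, TGACG (18.2%), or the GATA letters AGATAA (10.3%), on either strand. RefSeq's gene table gives Nr5a1 and Nr5a2 a span that begins before the start used here, so that 63 of the 250 bases of the Nr5a1 window and 169 of those of the Nr5a2 window lie inside the gene's annotated span. The Nr5a2 match lies in that overlap and the Nr5a1 matches lie outside it. These are matches of letters in 1 short window, and they say nothing of binding.

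Markers of granulosa cells and of other cell types were read first. Of 12 granulosa markers on the array, which include Nr5a2 and Foxl2, 12 had a signal above the floor (100.5, the median of all rat signals) on FOXOA3 FSH, 11 on FOXOA3-mDBD FSH, 12 on GFP FSH and 11 on GFP vehicle. The summed signal of these markers was 61395 on FOXOA3 FSH, 51312 on FOXOA3-mDBD FSH, 136153 on GFP FSH and 51827 on GFP vehicle. The theca cell genes Cyp17a1 and Insl3, the leukocyte genes Ptprc and Cd68 and the endothelial genes Pecam1 and Vwf, were under the floor on all 4 arrays. Other markers of the same lists were above it on all 4, namely Acta2, Tagln, Dcn and Ogn for theca, stroma and smooth muscle, Cd14 and Lyz2 for leukocytes and Kdr for endothelium; all these genes were picked after their values were seen. Cd14 read 2577 on FOXOA3 FSH, 1012 on FOXOA3-mDBD FSH, 727 on GFP FSH and 2167 on GFP vehicle, and Lyz2 read 1266, 512, 592 and 376 in that order. The 16 markers of theca, stroma and smooth muscle summed to 30747 on FOXOA3 FSH, 16501 on FOXOA3-mDBD FSH, 15439 on GFP FSH and 27413 on GFP vehicle, and 10, 5, 6 and 10 of them were above the floor on these arrays. The lowest and highest sums over the 4 arrays were 1714 to 4377 for 10 leukocyte markers, 424 to 835 for 9 endothelial markers, 453 to 1213 for 6 oocyte markers, 305 to 807 for 7 surface epithelium markers and 13084.5 to 83555 for 9 luteal markers, the last with Star and Cyp11a1 among them. The arrays also differed in their poly-A spike transcripts, RNAs added before labelling, whose mean signal was 21.3 on FOXOA3 FSH and 25.5 on GFP vehicle but 590.4 on FOXOA3-mDBD FSH and 435.9 on GFP FSH. FOXOA3-mDBD FSH over GFP FSH and FOXOA3 FSH over GFP vehicle therefore compare arrays of like spike signal, and the other comparisons cross it. The hybridisation controls were also lower on FOXOA3 FSH (1448) and GFP vehicle (1913) than on FOXOA3-mDBD FSH (3300) and GFP FSH (3200). The 3' to 5' signal ratio of beta-actin, a measure of RNA length, was 9.79 on FOXOA3 FSH, 10.7 on FOXOA3-mDBD FSH, 12.0 on GFP FSH and 5.15 on GFP vehicle. That of Gapdh differed less, at 2.84, 3.15, 2.46 and 2.32 in the same order. The part of the marker, spike, hybridisation control and 3' to 5' differences in the results below was not tested. The signal of Foxo1 was 3834 on FOXOA3 FSH, 961 on FOXOA3-mDBD FSH, 2862 on GFP FSH and 8149 on GFP vehicle, and it is not known here whether its probe set detects the vectors' transcripts.

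Of the NR5A receptors, Nr5a2 was the one that was over 2-fold higher with FSH. Its brightest probe set, 1390965_at, had a signal of 4195 on FOXOA3 FSH, 3736 on FOXOA3-mDBD FSH, 10820.2 on GFP FSH and 2210.2 on GFP vehicle. GFP FSH stood alone at the top, and both FOXO1 vectors lay between the 2 GFP arrays. With FSH the signal was 4.90-fold higher than with vehicle (log2 ratio 2.29), rank 65 from the highest of 8641 genes above the floor on both arrays. It was 2.58-fold lower with FOXOA3 than with GFP under FSH (log2 ratio -1.37) and 2.90-fold lower with FOXOA3-mDBD (log2 ratio -1.53). These comparisons share the GFP FSH array, so that 1 high value there would enter all of them. The log2 ratio of FOXOA3 FSH over FOXOA3-mDBD FSH was 0.17, so the active form and its binding mutant gave nearly equal signals on this probe set. In whole-culture RNA, fewer cells with a transcript and less of it per cell cannot be told apart.

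The other 2 Nr5a2 probe sets had the same order between GFP FSH and the remaining arrays. Probe set 1384835_at read 970.1 on FOXOA3 FSH, 1343 on FOXOA3-mDBD FSH, 3194 on GFP FSH and 505 on GFP vehicle, and the signal with FSH was 6.33-fold above vehicle. The dim 1387573_a_at read 98.8, 110.2, 613 and 88.9 on the same arrays, so that only GFP FSH was clear of the floor. Its difference between GFP FSH and GFP vehicle was at least 6.10-fold. The 3 probe sets differed on the FOXO1 vectors: 1390965_at was slightly brighter on FOXOA3 FSH, while the other 2 were brighter on FOXOA3-mDBD FSH, the dim one by 1.10-fold at the floor. Against GFP vehicle, 1384835_at was 1.92-fold higher on FOXOA3 FSH and 2.66-fold higher on FOXOA3-mDBD FSH, and 1390965_at 1.90-fold and 1.69-fold.

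**Figure D1:**
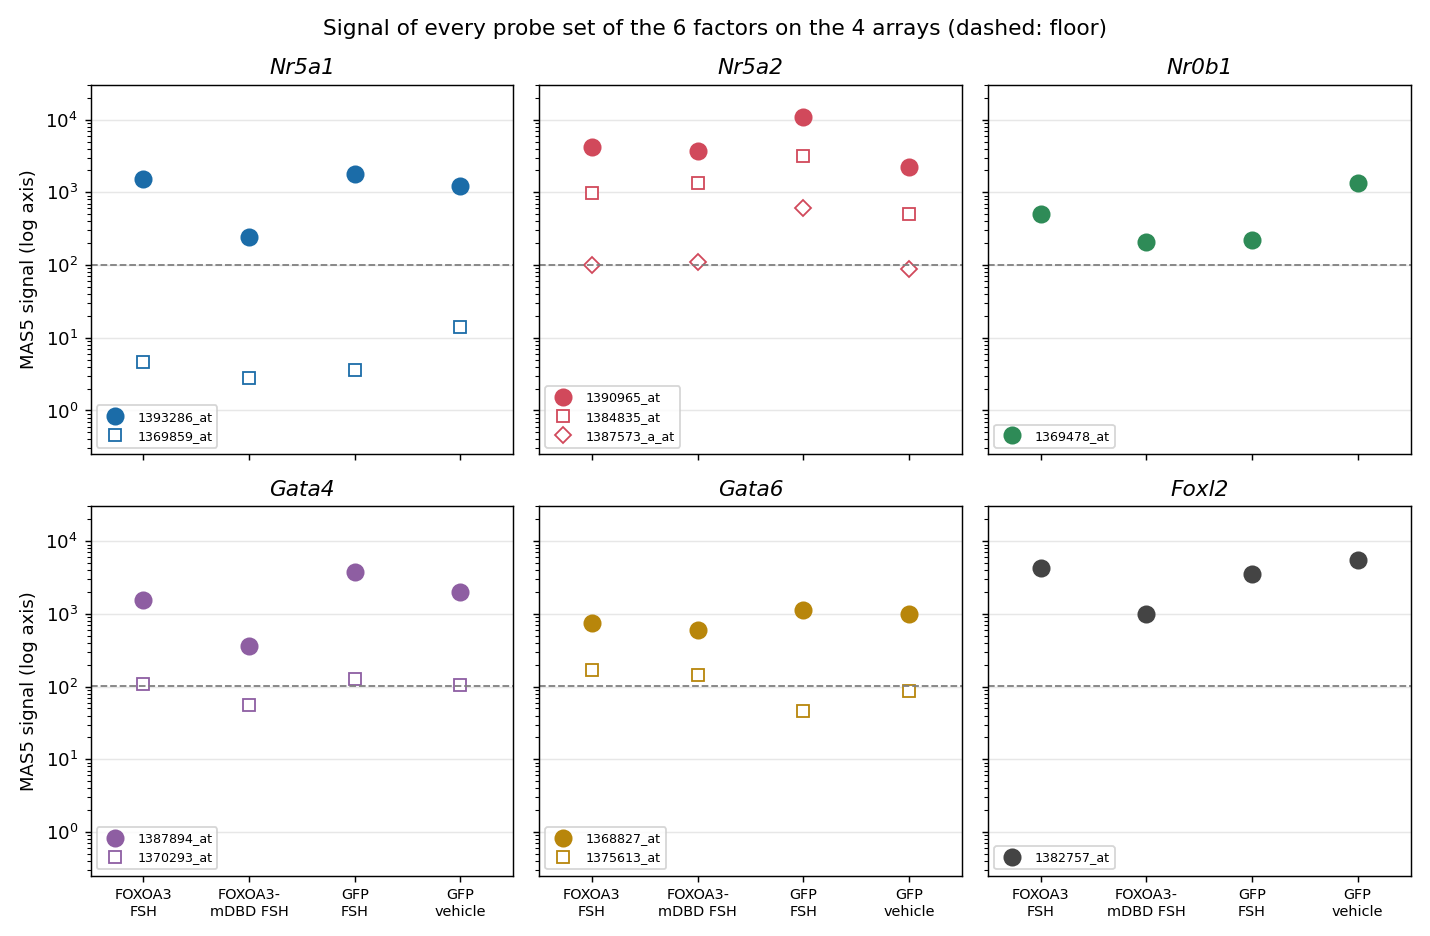
MAS5 signal (log axis) of each of the 11 probe sets on the 4 arrays, 1 panel per gene, with the brightest probe set filled, the others open and the floor of 100.5 dashed. Nr5a2 is highest on GFP FSH with all 3 probe sets, Nr0b1 is highest on GFP vehicle, and Nr5a1, Gata4 and Foxl2 are lowest on FOXOA3-mDBD FSH.

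Nr5a1 had another pattern from its relative. Probe set 1393286_at read 1506 on FOXOA3 FSH, 243 on FOXOA3-mDBD FSH, 1800.2 on GFP FSH and 1214 on GFP vehicle. It was low on FOXOA3-mDBD FSH, and the other 3 arrays lay within 1.48-fold of each other. The fold between FOXOA3-mDBD FSH and GFP FSH was 7.41-fold, with the mutant lower (log2 ratio -2.89), rank 39 from the lowest of 8325 genes above the floor on both. Against GFP vehicle, FOXOA3-mDBD FSH was 4.99-fold lower (log2 ratio -2.32). FOXOA3 FSH differed from GFP FSH by a log2 ratio of -0.26 only. The second probe set, 1369859_at, was between 2.8 and 14.1 on all 4 arrays, under the floor, and gives no second reading of the gene. With the mean of both probe sets in place of the brighter one, the log2 ratio of FOXOA3-mDBD FSH over GFP FSH was -1.44. The smaller size follows from the averaging alone, because the second probe set was raised to the floor on all 4 arrays.

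Nr0b1, the repressor of both NR5A proteins, was the gene of the 6 that was lower with FSH by more than 2-fold. Its probe set 1369478_at read 508 on FOXOA3 FSH, 208 on FOXOA3-mDBD FSH, 222 on GFP FSH and 1359.7 on GFP vehicle. GFP vehicle was the highest array, FOXOA3 FSH was intermediate, and FOXOA3-mDBD FSH and GFP FSH were low and close together. FSH gave a 6.13-fold lower signal than vehicle (log2 ratio -2.62), rank 70 from the lowest of 8641 genes. FOXOA3 FSH was 2.29-fold higher than GFP FSH (log2 ratio 1.19) but 2.68-fold lower than GFP vehicle. FOXOA3 FSH over FOXOA3-mDBD FSH had a log2 ratio of 1.29. The arrays with the higher Nr0b1 signals, FOXOA3 FSH and GFP vehicle, are also the 2 with low spike signal, so both higher values with FOXOA3 and the lower value with FSH compare arrays of unlike spike signal; its part in them was not tested. Between the arrays of like spike signal the log2 ratios were -1.42 for FOXOA3 FSH over GFP vehicle and -0.09 for FOXOA3-mDBD FSH over GFP FSH. The higher value with FOXOA3 is close to the 2-fold threshold: against GFP FSH the log2 ratio was 1.00 under quantile normalization, just below 2-fold, and 0.92 with a pseudocount, and against FOXOA3-mDBD FSH it was 0.96 under loess and 0.98 with a pseudocount.

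Both GATA genes were measured, and they differed. Gata4, by probe set 1387894_at, read 1529 on FOXOA3 FSH, 358 on FOXOA3-mDBD FSH, 3762 on GFP FSH and 1992 on GFP vehicle. The FOXOA3-mDBD FSH array was far below the rest, and FOXOA3 FSH was also below both GFP arrays. Its fold between FOXOA3-mDBD FSH and GFP FSH was 10.5-fold, with the mutant lower (log2 ratio -3.39), rank 12 from the lowest of 8325 genes. FOXOA3 FSH was 2.46-fold lower than GFP FSH (log2 ratio -1.30) and 4.27-fold higher than FOXOA3-mDBD FSH. FSH over vehicle gave a log2 ratio of 0.92, under the 2-fold threshold here and 1.01 with median centring. A second probe set, 1370293_at, stayed near the floor at 109, 56.0, 125 and 105 on FOXOA3 FSH, FOXOA3-mDBD FSH, GFP FSH and GFP vehicle. It was also lowest on FOXOA3-mDBD FSH and highest on GFP FSH, but with signals raised to the floor these arrays differed by only 1.25-fold. With both probe sets averaged the log2 ratio of FOXOA3-mDBD FSH over GFP FSH was -1.86, and that of FOXOA3 FSH over GFP FSH was -0.75 and no longer 2-fold.

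Gata6 was the steadiest of the 6, with a span of 1.85-fold over the 4 arrays. Its probe set 1368827_at read 742 on FOXOA3 FSH, 603 on FOXOA3-mDBD FSH, 1113 on GFP FSH and 991 on GFP vehicle. The order was that of the FOXO1 vectors below the GFP arrays, and no pair was 2-fold apart. The dimmer 1375613_at ran the other way, with 171 and 142 on FOXOA3 FSH and FOXOA3-mDBD FSH against 45.6 and 87.5 on GFP FSH and GFP vehicle. The direction of Gata6 between the vectors thus depends on the probe set, and the averaged log2 ratio of FOXOA3 FSH over GFP FSH was 0.09 against -0.58 for the brighter probe set.

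Foxl2 was lowest with the mutant vector. Probe set 1382757_at, its only one, read 4297 on FOXOA3 FSH, 994 on FOXOA3-mDBD FSH, 3536 on GFP FSH and 5546 on GFP vehicle. The FOXOA3-mDBD FSH array was low and the other 3 lay within 1.57-fold. FOXOA3-mDBD FSH was 3.56-fold lower than GFP FSH (log2 ratio -1.83) and 5.58-fold lower than GFP vehicle (log2 ratio -2.48). FOXOA3 FSH was 4.32-fold higher than FOXOA3-mDBD FSH (log2 ratio 2.11). GFP FSH over GFP vehicle had a log2 ratio of -0.65, and FOXOA3 FSH over GFP FSH one of 0.28, both within 2-fold.

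Counted together, the members past 2-fold lay in both directions with FSH alone, and those past 2-fold with the mutant against either GFP array were all lower. All comparisons with the mutant share its 1 array, FOXOA3-mDBD FSH, so that low values there would enter each of them. A gene was counted at a fold of 2 or more, with signals under the floor raised to it, and all 6 members were measured in every comparison. For GFP FSH over GFP vehicle 1 member was higher, against 6.84% of all 9578 measured genes, and 1 was lower, against 11.1%, or 17.9% in both directions. For FOXOA3 FSH over GFP FSH 1 was higher (11.1% of 9941 genes) and 2 were lower (6.99%), and 18.1% of all genes were apart. For FOXOA3-mDBD FSH over GFP FSH 0 were higher (12.5% of 9748 genes) and 4 were lower (19.2%), namely Nr5a1, Nr5a2, Gata4 and Foxl2, where 31.7% of all genes were apart. The median log2 ratio of the 6 there was -1.68, and that of all measured genes was -0.16. With 6 genes chosen for their known roles, these counts describe the genes and are no test of the list.

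For FOXOA3 FSH over FOXOA3-mDBD FSH 4 members were higher (19.0% of 10092 genes) and 0 lower (9.24%), namely Nr5a1, Nr0b1, Gata4 and Foxl2, where 28.2% of all genes were apart. The median of the 6 was 1.69 and that of all genes 0.21. Of all genes called in this comparison 67.2% were higher, but 59.3% under quantile normalization, 56.0% under loess and 49.3% under median centring, whereas the 4 members stayed on the higher side in all 3, Nr0b1 within 2-fold under loess. For FOXOA3 FSH over GFP vehicle 0 were higher (5.32% of 9904 genes) and 1 was lower (4.01%), which was Nr0b1, with 9.33% of all genes apart; under quantile normalization Nr5a2, at 1.02, was apart too. For FOXOA3-mDBD FSH over GFP vehicle 0 were higher (13.0% of 9861 genes) and 4 were lower (22.5%), namely Nr5a1, Nr0b1, Gata4 and Foxl2. There 35.4% of all genes were apart, and the members had a median of -2.40 against -0.17 for all genes. In that comparison 36.6% of all called genes were higher, and 50.5% under median centring. With median centring the median of all genes was -0.04 for FOXOA3-mDBD FSH over GFP FSH, 0.01 for FOXOA3 FSH over FOXOA3-mDBD FSH and 0.04 for FOXOA3-mDBD FSH over GFP vehicle.

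**Figure D2:**
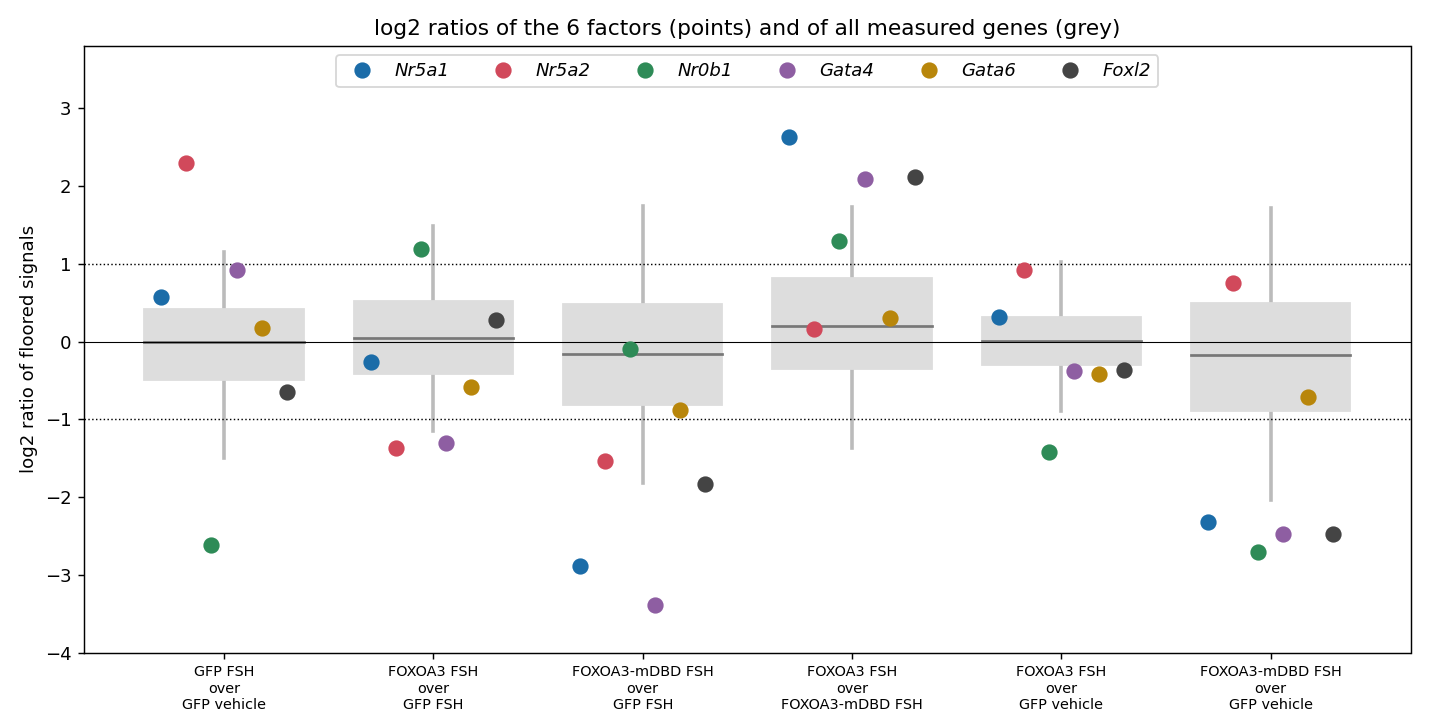
The log2 ratio of the 6 genes (coloured points, brightest probe set) in the 6 comparisons, over that of all measured genes (grey box, quartiles with the median; grey line, percentiles 5 to 95; dotted lines, 2-fold). With FSH alone Nr5a2 at 2.29 and Nr0b1 at -2.62 lie outside the grey lines, and with FOXOA3-mDBD FSH over GFP FSH Gata4 at -3.39 and Nr5a1 at -2.89 lie farthest out.

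Genes known as targets of NR5A and GATA factors differed widely between the arrays. The list had 20 entries, of which 15 were on the array and 13 measured. Counts of this list and of the later ones are to be read beside the shares of all genes given above for each comparison. For GFP FSH over GFP vehicle 12 of 13 were higher and 0 lower, with a median log2 ratio of 3.54. Cyp11a1, the side-chain cleavage enzyme that starts steroid synthesis, read 9809 on FOXOA3 FSH, 8979 on FOXOA3-mDBD FSH, 22700.1 on GFP FSH and 173.5 on GFP vehicle. Against GFP vehicle the log2 ratios of Cyp11a1 were 5.82 for FOXOA3 FSH and 5.69 for FOXOA3-mDBD FSH. Nr5a1, by its only probe set above the floor, was 6.20-fold higher on FOXOA3 FSH than on FOXOA3-mDBD FSH. Any link between Nr5a1 and Cyp11a1 was not tested. Cyp19a1, the aromatase, read 725.5, 275, 13042 and 35.0 on the same arrays in that order, and Star, the cholesterol carrier of mitochondria, 5854, 2976, 12092.5 and 247. For FOXOA3 FSH over GFP FSH 11 of 13 targets were lower and 0 higher (median -1.42), but 7 were lower under quantile normalization or loess. For FOXOA3-mDBD FSH over GFP FSH 10 of 13 were lower and 0 higher (median -2.25).

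Inha, the inhibin alpha subunit and a target of Gata4 and NR5A proteins, read 11433 on FOXOA3 FSH, 4267 on FOXOA3-mDBD FSH, 29569 on GFP FSH and 9571 on GFP vehicle. It was the third in size among the targets lower with the mutant, at a log2 ratio of -2.79 against GFP FSH, after Cyp19a1 at -5.57 and the luteinizing hormone receptor Lhcgr at -4.57. Inha and Amhr2, the receptor of anti-Mullerian hormone, were the 2 targets that were lower on FOXOA3-mDBD FSH than on GFP vehicle, at log2 ratios of -1.17 and -1.42, while 8 of the 13 were higher there. Between FOXOA3 FSH and FOXOA3-mDBD FSH, 3 of 13 targets were higher with the active form (19.0% of all measured genes) and 0 lower (9.24%). The 3 were Inha, Lhcgr and Cyp19a1, at log2 ratios of 1.42, 1.42 and 1.40. Amh, an early granulosa hormone regulated by Nr5a1, Gata4 and Foxl2, stayed near the floor at 141, 47.1, 111 and 136.5 on FOXOA3 FSH, FOXOA3-mDBD FSH, GFP FSH and GFP vehicle.

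The list of known FOXL2 targets and partners shares genes such as Cyp19a1, Star and Amh with the steroidogenic targets, and 7 of its 14 entries were measured. For FOXOA3-mDBD FSH over GFP FSH 3 of 7 were lower (19.2% of all measured genes) and 0 higher (12.5%), with a median of -0.80. These were Cyp19a1, Star and Ccnd2, the cyclin of granulosa cell proliferation, which read 2831 on FOXOA3 FSH, 1132 on FOXOA3-mDBD FSH, 6379 on GFP FSH and 2878 on GFP vehicle. The same 3 genes were lower for FOXOA3 FSH over GFP FSH, with a list median of -0.14, and were higher with FSH over vehicle, with a median of 0.41. Follistatin (Fst), which Foxl2 activates in mice, was not 2-fold apart in any comparison, with log2 ratios from -0.56 to 0.71.

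Among other genes of granulosa identity, 10 of 15 were measured for FOXOA3-mDBD FSH over GFP FSH. Of these 2 were higher (12.5% of all measured genes) and 4 lower (19.2%), with a median log2 ratio of -0.63. Wnt4, a signal needed for the female fate of the gonad, read 1351 on FOXOA3 FSH, 309 on FOXOA3-mDBD FSH, 2050.4 on GFP FSH and 706 on GFP vehicle, with the mutant again the lowest array. Runx1, a factor that helps Foxl2 keep fetal granulosa identity in mice, read 1576, 1654, 3472 and 683 in that order, highest with GFP and FSH as Nr5a2 was. Wt1, a zinc-finger factor that acts upstream of Nr5a1 in the early gonad, read 555, 228, 465 and 1315. Irx3, a homeobox factor of granulosa cells, was at 218, 212.5 and 217 on the 3 FSH arrays in the same order and at 1260.0 on GFP vehicle. With FSH over vehicle 2 of 9 measured genes of this list were higher (Runx1 and Wnt4) and 4 lower (Wt1, Foxo1, Six4 and Irx3). The shares of all measured genes there were 6.84% and 11.1%. Esr2, the estrogen receptor beta, was under the floor on all 4 arrays.

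A list of testis identity genes was read as the counterpart. Of its 9 entries, which include Nr0b1, 6 were on the array and the others, Sox9 among them, were not analysed here, and Dmrt1 and Sox10 were under the floor on all 4 arrays. Fgf9, a signal of Sertoli cell fate in the mouse testis, read 359 on FOXOA3 FSH, 4465 on FOXOA3-mDBD FSH, 186 on GFP FSH and 73.2 on GFP vehicle. The mutant array stood far above the rest, 24.0-fold above GFP FSH and 12.4-fold above FOXOA3 FSH. Cldn11, a junction protein of Sertoli cells, went the other way and read 705 on FOXOA3 FSH, 80.4 on FOXOA3-mDBD FSH, 813 on GFP FSH and 41.6 on GFP vehicle. With 1 of 4 measured genes higher and 1 lower for FOXOA3-mDBD FSH over GFP FSH, the list had no common direction.

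Of 14 regulators known to act on Nr5a1, 10 were measured for FOXOA3-mDBD FSH over GFP FSH. Of these 2 were higher (12.5% of all measured genes) and 3 lower (19.2%), and the median log2 ratio was -0.28. Usf1 and Usf2, the E-box factors, differed. Usf1 read 1141 on FOXOA3 FSH, 992.5 on FOXOA3-mDBD FSH, 299.5 on GFP FSH and 919 on GFP vehicle. Usf2 read 611, 171.5, 555 and 571 in that order, lowest on FOXOA3-mDBD FSH, as Nr5a1 was. Any link between Usf2 and Nr5a1 was not tested. Nfya, which encodes 1 of the NF-Y subunits, read 1792 on FOXOA3 FSH, 584 on FOXOA3-mDBD FSH, 601 on GFP FSH and 1799 on GFP vehicle. The genes of its partner subunits, Nfyb and Nfyc, were within 2-fold in all 6 comparisons. For FOXOA3 FSH over FOXOA3-mDBD FSH 4 of 10 regulators were higher (19.0% of all measured genes), namely Usf2, Cbx2, Wt1 and Nfya, and 0 lower (9.24%).

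Genes listed as cofactors and opposing factors of the NR5A, GATA and FOXL2 proteins gave no common direction. For GFP FSH over GFP vehicle, 2 of 15 measured cofactors and opposing factors passed 2-fold upward and 3 downward (median -0.68). The shares of all measured genes were 6.84% and 11.1%. Zfpm2 (FOG2), the partner that restrains Gata4, read 889 on FOXOA3 FSH, 439 on FOXOA3-mDBD FSH, 727 on GFP FSH and 2810.1 on GFP vehicle, so that it was lower on all FSH arrays. Nr0b2 (SHP), a repressor of Nr5a2, was above the floor on GFP FSH alone, at 399 there and at 77.0, 87.0 and 84.9 on FOXOA3 FSH, FOXOA3-mDBD FSH and GFP vehicle. Cebpb, a factor of luteinization, had the largest ratio of this list between the FOXO1 vectors, reading 2773.5 on FOXOA3 FSH but 99.1 on the FOXOA3-mDBD FSH array, at least 27.6-fold, beside 519.9 on GFP FSH and 848 on GFP vehicle. For FOXOA3 FSH over GFP FSH 4 of 16 were higher and 2 lower (median 0.57), and for FOXOA3-mDBD FSH over GFP FSH 4 of 18 were higher and 2 lower (median 0.28).

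**Figure D3:**
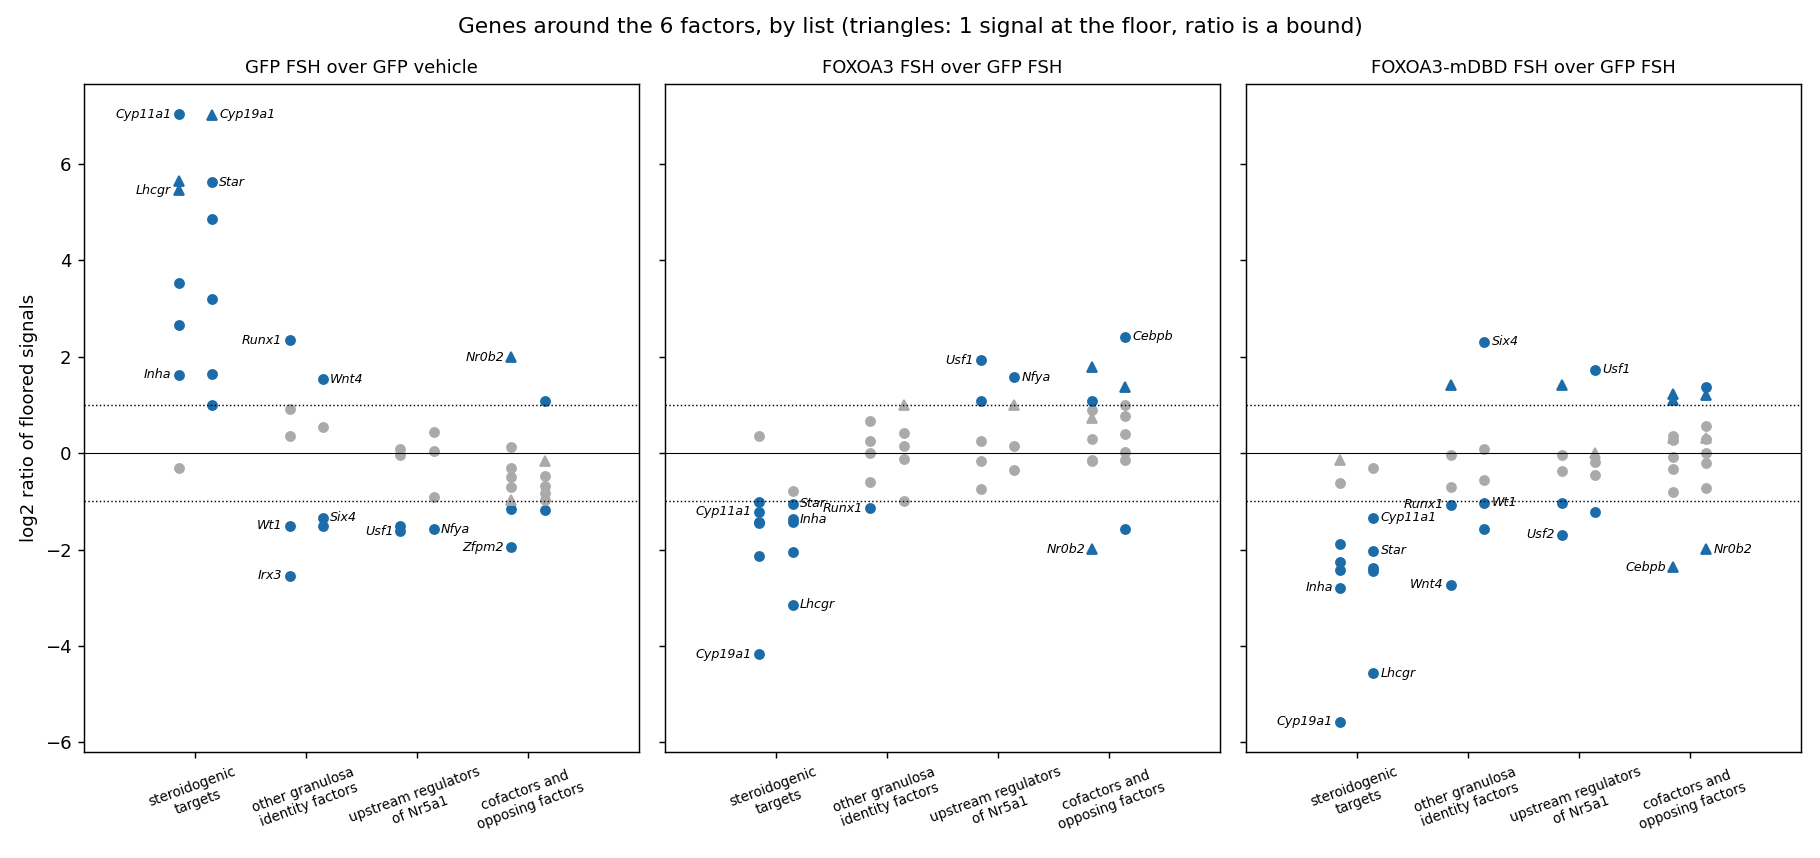
The log2 ratio of each measured gene of 4 lists in 3 comparisons (blue, at least 2-fold; grey, within 2-fold; triangles, 1 signal at the floor so that the ratio is a bound). Of 13 steroidogenic targets, 12 are at least 2-fold higher with FSH over vehicle, and 11 and 10 are at least 2-fold lower with FOXOA3 and FOXOA3-mDBD; Amh lies on the other side of 0 in the first 2 comparisons, at -0.30 and 0.35.

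Relatives of the 6 in the GATA, NR0B, COUP and forkhead families gave 10 to 12 measured genes of 19 in the comparisons with GFP FSH. Gata1 and Gata5 were under the floor on all 4 arrays, and Gata3 did not exceed 167. With FSH over vehicle 1 of 10 was higher (6.84% of all measured genes), Nr0b2, and 3 were lower (11.1%), Nr2f2, Foxo1 and Foxp1. Foxp1, a forkhead repressor, read 3711 on FOXOA3 FSH, 2224 on FOXOA3-mDBD FSH, 1409.8 on GFP FSH and 4466.5 on GFP vehicle. Nr2f2 (COUP-TFII) read 2357, 1105, 1109 and 2522 in that order, high on the FOXOA3 FSH and GFP vehicle arrays as Nfya was, and these are the 2 arrays with low spike signal. The forkhead genes Foxo3, Foxo4, Foxn3 and Foxk2 were within 2-fold in all 6 comparisons.

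Likeness of pattern was measured as the root mean square distance between log2 signals over the 4 arrays. Signals were first raised to the floor, and the log2 values were centred on their gene's mean. The search covered 10406 genes above the floor on at least 1 array. The distance was taken for each member that spanned at least 2-fold, so not for Gata6. The closest to Nr5a2 were Ttyh2, Hilpda and Dhcr7 at distances of 0.06, 0.09 and 0.10. Dhcr7, the last enzyme of cholesterol synthesis, read 4193 on FOXOA3 FSH, 3735 on FOXOA3-mDBD FSH, 12642 on GFP FSH and 2164 on GFP vehicle. The closest to Nr0b1 were Sh3bp4, Rasgrp3 and Tgfb1i1 at 0.04, 0.05 and 0.07. For Nr5a1 they were Pdlim4, St3gal1 and Fkbp10 at 0.11, 0.12 and 0.16. For Gata4 they were Gstm2, Tmem176b and Adgrg1 at 0.12, 0.13 and 0.14, and for Foxl2 Cd276, Slc48a1 and Fcgrt at 0.03, 0.05 and 0.06. Some of these distances rest in part on the floor. Rasgrp3 read 91.1 on FOXOA3-mDBD FSH and 26.5 on GFP FSH, both raised to it. Ttyh2 on GFP vehicle (75.6), and Gstm2 (44) and Slc48a1 (96.4) on FOXOA3-mDBD FSH, were also raised. Within the 6, Nr5a1 and Gata4 were the closest pair, at 0.38, and both were lowest on the 1 FOXOA3-mDBD FSH array. Nr5a1 ranked 37 among all genes by distance from Gata4, and Gata4 ranked 62 by distance from Nr5a1. Nr5a2 and Nr0b1 were the farthest pair, at 1.79. With 1 array per group these distances describe 4 values per gene and carry no p.

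**Figure D4:**
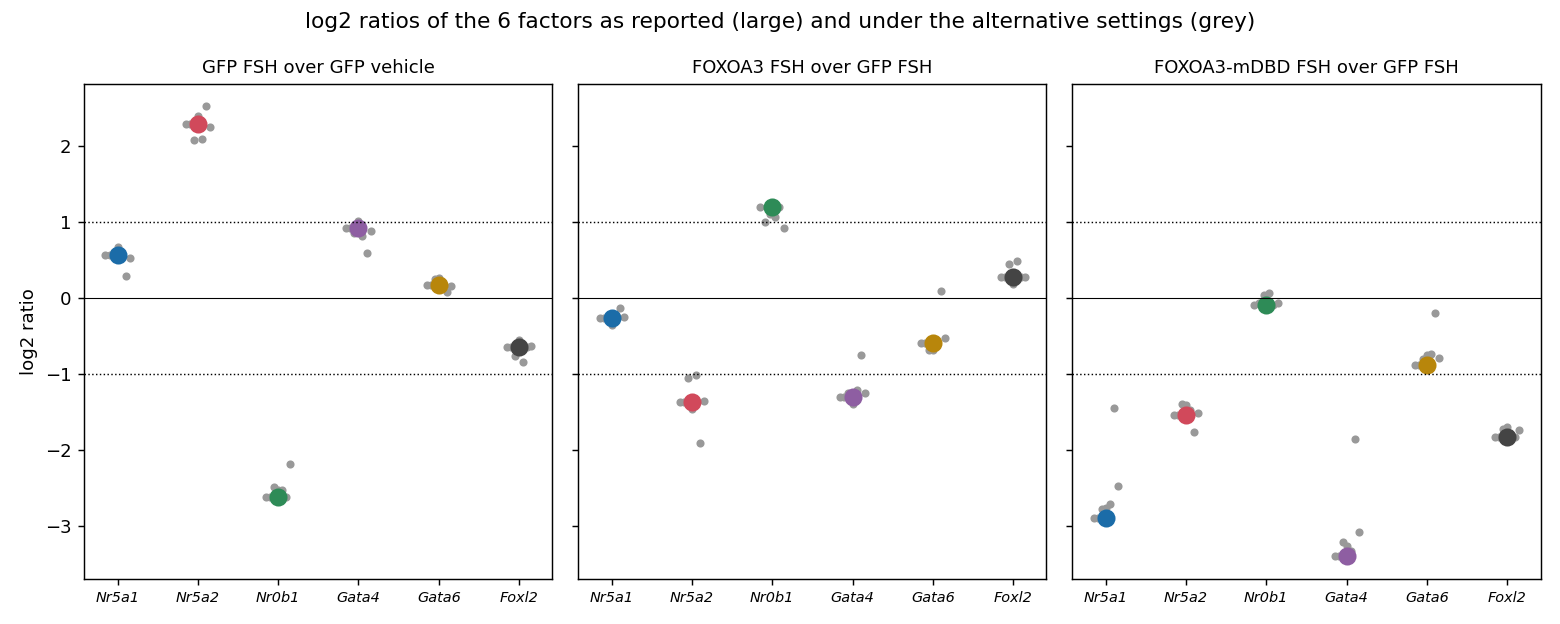
The log2 ratio of the 6 genes in 3 comparisons as reported (large points) and under 7 alternative settings (grey points), with dotted lines at 2-fold. The grey points of Nr5a1 at -1.44 and Gata4 at -1.86 in the right panel come from averaging a dim second probe set; Foxl2 there runs from -1.83 to -1.70.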

How the data were processed

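Total RNA was read on 4 rat arrays, 1 per group. Values deposited by the authors are linear intensity, 1 per probe set. They come from MAS5 per the submitters' processing notes, which name no version or setting here. This method brings all arrays to the same trimmed mean, 500.0 here, and gives unsteady values for dim probe sets. Of 31099 probe sets, 57 were controls, and the platform annotation gave 1 symbol for 20826, several for 436 and none for 9780. Counts used the brightest probe set per gene by mean signal. Signals were raised to a floor, the pooled median of 100.5, before log2 was taken, and a fold against it is written "at least". A gene was measured if its higher signal exceeded the floor, and called at 2-fold.

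The members and gene lists were chosen with earlier results of these data known. Of 7 gene lists, a rule took in each comparison up to 4 genes with the largest ratios past 2-fold. Star, Cyp11a1, Cyp19a1, Inha, Foxo1 and Amh were added to them. The text names only a part of the genes that the rule took, and leaves out Prlr, Scarb1, Hsd17b1, Prox1, Crebbp, Nr4a1 and Lhx9 among others. This part, and the other genes given with values, were picked after their values were seen. Fshr was not analysed here. The AGGTCA motif was added after the sequences were seen. No test was possible with 1 array per group, and the number of arrays limits the precision. The steps ran in Python with pandas and statsmodels, and were tested on simulated data. Alternatives varied the floor, the filter, the scaling (quantile, median centring, loess), the probe set rule and a pseudocount.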

Additional observations from a re-analysis of the deposited data

How the results depend on the processing

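Each of the 36 member ratios was recomputed under 7 alternatives, which gave 249 values. Some alternatives could not change a member ratio. The brightest probe set of each member was above the floor on every array, so the 25th percentile floor repeated the reported values. The 75th percentile filter only keeps or drops a gene. Averaging could not change Nr0b1 or Foxl2, which had 1 probe set each. The counts below include these repeated values, which are no check of the ratios. Of the 18 ratios past 2-fold, 0 changed sign under any alternative. Ratios within 2-fold were left out of this count, and some of them changed sign. For Nr5a2, FOXOA3 FSH over FOXOA3-mDBD FSH was 0.17 as reported and -0.14 with probe sets averaged. Of 18 ratios past 2-fold, 15 kept their side of it under every alternative that gave a value, and the exceptions were Gata4 for FOXOA3 FSH over GFP FSH and Nr0b1 for FOXOA3 FSH over GFP FSH and over FOXOA3-mDBD FSH. Of 18 within 2-fold, 16 stayed there, while Gata4 for GFP FSH over GFP vehicle passed it at 1.01 under median centring and Nr5a2 for FOXOA3 FSH over GFP vehicle at 1.02 under quantile normalization. That last shift took the members apart in FOXOA3 FSH over GFP vehicle to 2, against 1 as reported. Only averaging of probe sets moved member ratios by over 1.5 times, in 10 values of Nr5a1, Gata4 and Gata6, whose second probe sets are dim. Nr0b1 had no value under the 75th percentile filter in the 3 comparisons among FSH arrays. The number of all genes apart depended on the floor: with the 25th percentile it was 2651 for GFP FSH over GFP vehicle, 2956 for FOXOA3 FSH over GFP FSH and 1846 for FOXOA3 FSH over GFP vehicle, against 1718, 1800 and 924 as reported, where more dim genes are tested. It was 602 for FOXOA3 FSH over GFP vehicle with the 75th percentile filter, where fewer are. No paired analysis was possible because each group had 1 array. Dim probe sets near the floor limit what Gata4, Gata6 and Nr5a1 can show beyond their brightest probe set.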
